A study of Mus musculus with 76 samples.

Results

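Alveolar septa of smoke-exposed mice lacking Noxo1 were compared with those of smoke-exposed wild-type mice at 3 months. The arrays were picked by their titles, which gave 5 knockout and 5 wild-type arrays of the 76 in the series, each from a mouse of its own. The series holds microdissected septa and vessels from 40 mice in 16 groups that differ in genotype, smoke, duration and tissue. Total RNA was amplified to cDNA, labelled with Cy5 and hybridised to single-colour Agilent mouse arrays, and the deposited values are log2 signals for 20710 named genes after the brightest probe of each gene was taken. A difference is given throughout as the knockout mean minus the wild-type mean on that log2 scale.

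The knockout group held 5 smoke-exposed mice and the wild-type group 5 smoke-exposed mice, all of them adult. The labels name 1 strain, C57BL/6-Noxo1(tm1881_17.2Arte), for every mouse, and give neither the deleted stretch of the gene nor whether the wild-type mice were littermates. Mice breathed smoke of research cigarettes at 140 mg of particles per m3, for 6 h on 5 days of a week, starting at week 12 of age. The protocol text gives 8 months of smoke for all samples, whereas the titles of these 10 arrays give 3 months, and the titles were followed. The labels give each of these 10 arrays a mouse number of its own and state no sex. Further groups served only to show where the comparison differed from others: control septa at 3 months (5 knockout, 4 wild-type mice), smoke-exposed septa at 8 months (5 and 5), and the vessels of the same 10 smoke-exposed mice.

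NOXO1 organises the assembly of NOX1, an NADPH oxidase. With the activator NOXA1, the small GTPase RAC1 and the membrane partner CYBA it switches NOX1 on, and the enzyme then passes electrons from NADPH to oxygen and releases superoxide. Alveolar septa are the walls between the air spaces, made of type 1 and type 2 pneumocytes, capillaries and fibroblasts, and they are the structure lost in emphysema, a disease that long exposure to cigarette smoke can cause. The series is about the part of NOXO1 in smoke-induced emphysema and pulmonary hypertension.

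The arrays of both groups were alike in overall quality. Taking for each array its median correlation with every other septa array, values ran from 0.915 to 0.931 in knockout mice and from 0.901 to 0.932 in wild-type mice. The dissection was visible in marker genes: the mean signal of 10 type 1 pneumocyte markers was 10.03 to 10.63 in knockout septa and 9.33 to 10.59 in wild-type septa, whereas it was 7.89 to 9.46 in knockout vessels and 7.40 to 9.34 in wild-type vessels. Smooth muscle markers ran the other way, with 6.32 to 6.72 in knockout septa and 6.19 to 7.17 in wild-type septa, against 10.30 to 11.23 in knockout vessels and 9.76 to 11.29 in wild-type vessels. As a gauge of dim signal, 1310 odorant and vomeronasal receptor genes, which lung tissue is not known to use widely, reached 3.97 at their 95th percentile, and 53.3% of genes were brighter on average. Values under 3.97 are called dim below.

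A sex-linked pattern ran along with genotype. Xist, the RNA that coats the inactive X chromosome of females, had signals of 11.37, 11.50, 11.68, 4.65 and 1.50 in knockout replicates 1 to 5. In wild-type replicates 1 to 5 it had 3.22, 1.49, 4.21, 4.39 and 1.98. The Y-linked translation factor gene Eif2s3y had 3.51, 4.39, 2.88, 7.58 and 7.94 in knockout mice, against 7.26 to 7.92 in wild-type mice. So 3 of 5 knockout septa arrays and 0 of 5 wild-type septa arrays had Xist above Eif2s3y, and the vessels of the same mice gave the same counts. Main results are therefore also given over the arrays with Eif2s3y above Xist, 2 knockout and 5 wild-type, and that value is called the male-pattern difference. A second value, called sex-adjusted, comes from a fit of all septa arrays with a sex-linked score as a covariate. In the comparison of all 10 mice the share of genotype and that of sex pattern cannot be told apart.

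Noxo1, the targeted gene (chr17:24696234-24700530, GRCm38.p6), was at a low signal in knockout septa. It read 2.26, 1.57, 1.79, 1.64 and 2.97 in knockout replicates 1 to 5, against 5.08, 4.02, 5.17, 5.49 and 2.41 in wild-type replicates 1 to 5. All knockout values were dim, and 4 of 5 wild-type values were above the receptor gene threshold, while wild-type replicate 5 lay among the knockout mice. The means were 2.05 ± 0.58 in knockout mice and 4.43 ± 1.26 in wild-type mice (SD, n = 5 each), a difference of -2.39. An exact two-sided permutation test over the 10 mice gave p = 0.0159, where 0.00794 is the smallest value that 5 against 5 allows. Over all genes the limma fit gave -2.39 ± 0.63 (SE, adjusted p 0.565). The male-pattern difference was -2.13, with an exact permutation p of 0.190. With 2 knockout and 5 wild-type arrays that test cannot reach 0.05, whatever the values. Since the labels do not say what was deleted, it was not tested whether the probe lies in the deleted stretch.

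**Figure D1:**
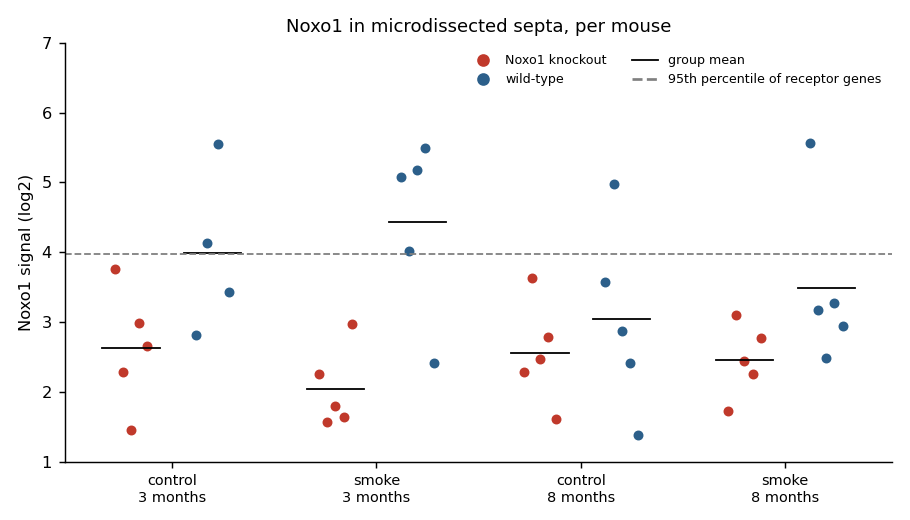
Noxo1 signal (log2, vertical axis) in microdissected septa of the 8 groups, with a point for each mouse and a bar for the group mean. At 3 months with smoke the knockout points lie between 1.57 and 2.97 and 4 of the 5 wild-type points between 4.02 and 5.49, above the dashed line at 3.97.

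The other septa groups and the vessels of the same mice also had lower Noxo1 means in knockout mice, by smaller amounts. The difference was -1.35 ± 0.66 in control septa at 3 months, -1.03 ± 0.63 in smoke-exposed septa at 8 months and -2.18 ± 0.90 in the vessels of the same mice (SE, limma), and none of these passed adjustment over all genes. In control septa at 8 months the mean was 2.56 ± 0.74 in knockout mice and 3.04 ± 1.34 in wild-type mice (SD, n = 5 each). The control vessels were different. At 3 months the mean was 3.45 ± 1.02 in knockout mice (n = 4) and 3.55 ± 1.81 over 5 wild-type arrays (SD). Wild-type replicates 2 and 5 among these, at 1.92 and 5.11, came from the same mouse and were counted separately. At 8 months the means were 3.74 ± 1.93 in knockout mice and 3.60 ± 1.57 in wild-type mice (SD, n = 5 each), so the knockout mean was the higher one. The largest wild-type mean of Noxo1 among the septa groups was that of the smoke-exposed mice at 3 months.

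The rest of the NADPH oxidase family was measured by 14 further genes, and none of them passed the adjusted test. Nox1 itself, the catalytic partner of NOXO1, was dim in every mouse, with 1.95, 1.09, 2.00, 1.16 and 1.49 in knockout mice and 1.61, 2.41, 2.14, 1.73 and 1.92 in wild-type mice. Duox2, a dual oxidase of epithelia, was dim in both groups too, at 1.34 to 2.33 in knockout mice and 2.23 to 3.73 in wild-type mice, with a difference of -1.17 ± 0.49 (SE, limma, adjusted p 0.968). The activator Noxa1 averaged 3.28 in knockout mice and 2.73 in wild-type mice, both dim. Nox3, an oxidase of the inner ear, the dual oxidase Duox1 and the maturation factor Duoxa2 were dim on average in both groups and differed by 0.09, 0.45 and -0.04, and the maturation factor Duoxa1 differed by -0.15.

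The well-expressed oxidase genes of septa showed small differences. Nox4, a constitutively active oxidase of endothelium and fibroblasts, read 7.43 to 8.80 in knockout mice and 7.95 to 9.34 in wild-type mice, with a difference of -0.31 ± 0.41. Cybb, the catalytic subunit of the phagocyte oxidase, read 8.71 to 10.43 in knockout mice, and in wild-type mice 4 values of 10.22 to 11.00 with 1 at 5.91. Cyba, the membrane partner shared by several oxidases, differed by -0.24 ± 0.22. The cytosolic phagocyte subunits Ncf1 and Ncf4 differed by 0.36 ± 0.48 and -0.15 ± 0.59. Rac1, the GTPase of the complex, had means of 14.23 in both groups, and its leucocyte relative Rac2 differed by 0.17 ± 0.42. The median over the 15 measured oxidase genes was -0.04, against -0.01 over all 20710 genes.

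Across the whole table no gene passed. With limma and Benjamini-Hochberg adjustment over 20710 genes, 0 genes (0%) had an adjusted p of 0.05 or less, and the lowest adjusted p was 0.123. An unadjusted p under 0.05 was found for 1046 genes (5.05%), of which 501 (2.42% of all genes) were higher and 545 (2.63%) lower in knockout mice. In 82 genes (0.396%) all knockout values lay above all wild-type values, and in 68 genes (0.328%) all lay below. Of all genes 48.8% had a difference above 0. Among 31125 features without a gene symbol 0 passed in limma, with 1626 (5.22%) at an unadjusted p under 0.05 and a lowest adjusted p of 0.0544. Known shifts were added to simulated data of this design, with independent normal noise and 50 genes at each size of shift. On the log2 scale, limma found 10% of genes shifted by 1 and 50% of those shifted by 2. It found 86% of those shifted by 3 and 96% of those shifted by 4, and 5 genes without a shift passed too. Shifts of 1 would thus mostly be missed with these numbers of mice. The shares depend on how many genes are shifted at once, which is not known for the real data.

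The genes described next are the 10 higher and 10 lower genes of lowest p among those bright enough in at least 1 group, and none of them passed the adjusted test. Adss, which encodes an adenylosuccinate synthase of AMP synthesis, led the higher genes. It read 7.61, 7.84, 8.02, 8.17 and 7.31 in knockout mice, against 6.78, 6.14, 5.68, 5.04 and 5.38 in wild-type mice. The groups did not overlap, and the difference was 1.99 ± 0.39 (SE, limma, adjusted p 0.123), or 3.96-fold. In control septa at 3 months Adss averaged 7.49 ± 0.50 in knockout mice (n = 5) and 7.65 ± 0.54 in wild-type mice (SD, n = 4), so the smoke-exposed wild-type group was the low one of these 4 groups. Without wild-type replicate 1 the Adss difference was 2.23 (limma, adjusted p 0.0158), and the sex-adjusted value was 2.20 (adjusted p 0.0479). Adss passed in these 2 of 21 alternative settings, in which its adjusted p ran from 0.0158 to 1.00, and its male-pattern difference was 1.93.

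Slc6a14, a transporter of neutral and basic amino acids, read 4.75, 5.11, 3.93, 5.54 and 5.84 in knockout mice, against 4.65, 1.36, 2.27, 2.02 and 1.65 in wild-type mice. The wild-type values were dim in 4 of 5 mice, and replicate 1 alone reached the knockout range. The difference was 2.64 ± 0.53 (SE, limma, adjusted p 0.123), and without wild-type replicate 1 it was 3.21 (limma, adjusted p 0.00296), the 1 of 21 alternative settings in which it passed. Slc6a14 lies on the X chromosome, and its male-pattern difference was 3.30. In control septa at 3 months it averaged 5.20 ± 0.83 in knockout mice and 5.89 ± 0.87 in wild-type mice, and in smoke-exposed septa at 8 months 6.39 ± 0.56 and 6.04 ± 0.17 (SD).

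The other higher genes were of several kinds. Cyp2b10, a cytochrome P450 of xenobiotic metabolism, read 11.72 to 12.21 in knockout mice and 10.50 to 11.69 in wild-type mice, with a difference of 0.92 ± 0.22. Mapk8, the stress kinase JNK1, read 6.09 to 8.13 in knockout mice and 3.69 to 5.71 in wild-type mice, with a difference of 2.11 ± 0.58 without overlap. Zcchc8, a subunit of the nuclear exosome targeting complex, differed by 0.95 ± 0.25 without overlap. Cux1, a homeodomain transcription factor, differed by 1.47 ± 0.41 with overlapping groups. Zw10, which acts at kinetochores and in transport between the endoplasmic reticulum and Golgi, differed by 2.55 ± 0.65, and 1 wild-type value of 1.86 stood below the others at 5.05 to 6.69. Tigd2, related to transposases, Plekhb1, with a lipid-binding domain, and Sec14l4, of a family of lipid-binding proteins, differed by 2.35 ± 0.56, 1.21 ± 0.32 and 1.60 ± 0.44. Their limma adjusted p values lay between 0.454 and 0.674. Mapk8, Cux1 and Plekhb1 had more than 1 feature on the array, and with the mean of all features in place of the brightest their differences were 0.73, 0.48 and 0.39.

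**Figure D2:**
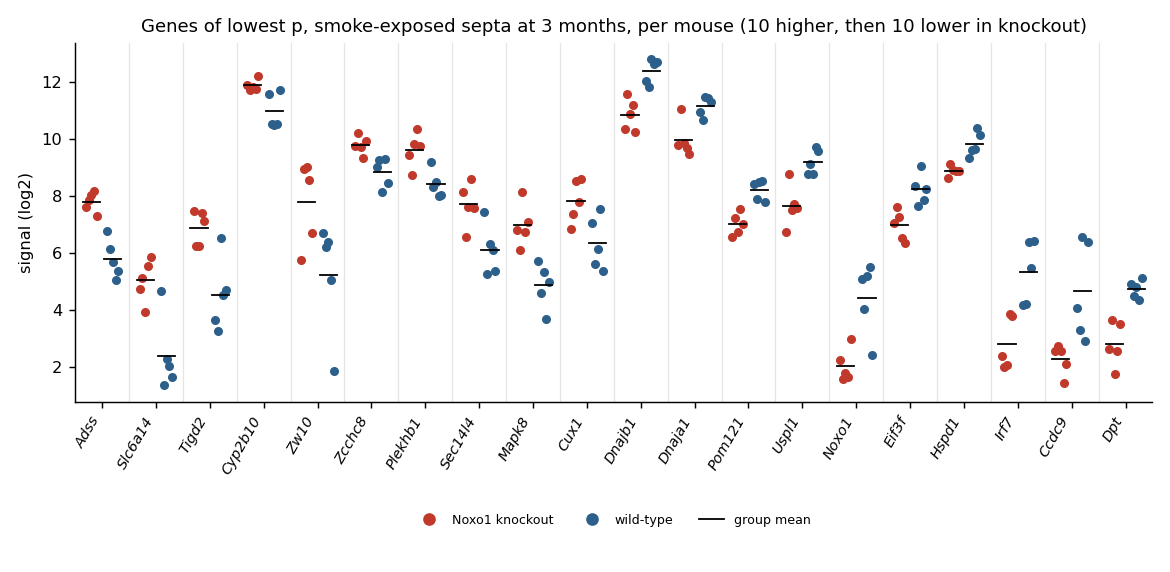
Signals (log2, vertical axis) of the 10 higher and 10 lower genes of lowest p in smoke-exposed septa at 3 months, with 5 points per group, knockout left of wild-type, and bars for group means. The groups do not overlap in Adss, Cyp2b10, Zcchc8 and Mapk8 among the higher genes and in 7 of the lower genes. Over all genes, 0.396% have all knockout values above and 0.328% all below. The 20 genes were picked by low p on these same arrays, which favours genes without overlap. Their limma adjusted p values lie between 0.123 and 0.674.

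The lower genes opened with a pair of co-chaperones of the HSP70 system, Dnajb1 and Dnaja1. Dnajb1 read 10.36, 11.57, 10.88, 11.20 and 10.25 in knockout mice, against 12.04, 11.81, 12.80, 12.62 and 12.68 in wild-type mice. The highest knockout value lay just under the lowest wild-type value, and the difference was -1.54 ± 0.33 (SE, limma, adjusted p 0.187), which is 0.344 times the wild-type level. Dnaja1 read 9.80, 11.03, 9.86, 9.68 and 9.45 in knockout mice, against 10.94, 10.66, 11.46, 11.43 and 11.29 in wild-type mice. Only knockout replicate 2 reached the wild-type range. The difference of Dnaja1 was -1.19 ± 0.26 (adjusted p 0.187), and without knockout replicate 2 it was -1.46 (limma, adjusted p 0.0128), the 1 of 21 alternative settings in which it passed. The male-pattern differences were -1.67 for Dnajb1 and -1.59 for Dnaja1.

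Among the other lower genes, the mitochondrial chaperonin gene Hspd1 read 8.62 to 9.10 in knockout mice and 9.34 to 10.39 in wild-type mice, with a difference of -0.95 ± 0.26 without overlap. Irf7, a transcription factor of type I interferon induction, was dim in all knockout mice at 2.00 to 3.85, against 4.19 to 6.41 in wild-type mice, with a difference of -2.51 ± 0.72. Dpt, which encodes the matrix protein dermatopontin of fibroblasts, was dim at 1.74 to 3.65 in knockout mice, against 4.36 to 5.13 in wild-type mice, with a difference of -1.91 ± 0.57. The nuclear pore gene Pom121, the SUMO protease gene Uspl1 and the translation initiation gene Eif3f differed by -1.21 ± 0.31, -1.53 ± 0.40 and -1.27 ± 0.33. Noxo1 itself was also among these lower genes. Ccdc9 was dim in knockout mice at 1.45 to 2.74 and differed by -2.36 ± 0.69. Just beyond the 20 genes stood Gdpd1 among the higher (1.33 ± 0.37) and Ift57 among the lower (-1.80 ± 0.53).

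The signs of the 20 genes were kept in the male-pattern comparison, in which the differences were 0.600 to 1.41 times those over all mice and the limma adjusted p values 0.433 to 0.996. That comparison reuses 2 knockout and 5 wild-type arrays on which the genes were picked. Kept signs were therefore favoured, and they do not separate genotype from sex pattern. The smallest ratio belonged to Irf7, with a male-pattern difference of -1.50. In control septa at 3 months 14 of the 20 genes had the same sign, with 1 at an unadjusted p under 0.05, where 3.07% of all genes were. That gene was the targeted Noxo1 itself (-1.35 ± 0.66, SE). In smoke-exposed septa at 8 months 11 of 20 had the same sign, again with 1 under 0.05 (4.38% of all genes). In the vessels of the same mice, which share the sex pattern, 14 of 20 had the same sign and 6 were under 0.05 (7.13% of all genes). Without Noxo1, 13 of 19 had the same sign in control septa, 10 of 19 at 8 months and 13 of 19 in vessels. The median size of the 20 differences was 1.57 in the smoke-exposed septa at 3 months, 0.31 in control septa, 0.36 at 8 months and 0.66 in vessels, where the first is large because the genes were picked on it.

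The heat shock genes lay lower in knockout septa as a group. Of 11 measured members 10 were lower, with a median of -0.73, against -0.01 and 51.2% lower over all genes. An unadjusted p under 0.05 was found for 7 of the 11, all of them lower, where 2.63% of all genes were lower at that level, and 0 passed the adjusted limma test. This list and those below were chosen with earlier results of these data known. Members of a list were measured on the same 10 arrays and are not independent of each other. Dnajb1 and Hspd1 are also among the 20 genes picked by low p. Heat shock genes encode chaperones, which fold proteins and hold damaged ones in solution. Many are switched on by the transcription factor HSF1 after heat or other stress that unfolds proteins. HSF1 binds DNA as a trimer at repeats of the unit NGAAN in alternating directions.

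The promoters are shown because the genes lay lower together and their known regulator has a defined site. Dnaja1 is printed with them as one of the 20 genes of lowest p and is not one of the 11 heat shock genes. Only windows that held a match are printed, and not all of those. The windows run from 250 bases before to 50 bases after a RefSeq start site (GRCm38.p6) and are printed in the gene's own direction. Capitals mark matches of the pairs of units GAANNTTC or TTCNNGAA, and overlapping matches run together. The windows belong to the inducible HSP70 gene Hspa1a (chr17:34972107-34972406, minus strand), the small chaperone Hspb1 (chr5:135887669-135887968, plus strand), the HSP110 gene Hsph1 (chr5:149636266-149636565, minus strand), the mitochondrial co-chaperonin Hspe1 (chr1:55087898-55088197, plus strand) and the co-chaperone Dnaja1 (chr4:40722218-40722517, plus strand).
Hspa1a: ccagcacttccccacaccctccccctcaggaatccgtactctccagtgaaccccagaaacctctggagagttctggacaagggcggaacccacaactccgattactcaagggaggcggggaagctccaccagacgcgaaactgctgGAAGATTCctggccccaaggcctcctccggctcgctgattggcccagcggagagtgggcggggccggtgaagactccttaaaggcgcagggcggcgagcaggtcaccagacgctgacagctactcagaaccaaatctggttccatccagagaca
Hspb1: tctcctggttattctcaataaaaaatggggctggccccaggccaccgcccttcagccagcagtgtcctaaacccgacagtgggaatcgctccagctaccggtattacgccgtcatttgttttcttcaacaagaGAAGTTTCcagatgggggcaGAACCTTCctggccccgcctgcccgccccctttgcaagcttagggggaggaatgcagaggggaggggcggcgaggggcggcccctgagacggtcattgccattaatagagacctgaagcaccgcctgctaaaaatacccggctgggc
Hsph1: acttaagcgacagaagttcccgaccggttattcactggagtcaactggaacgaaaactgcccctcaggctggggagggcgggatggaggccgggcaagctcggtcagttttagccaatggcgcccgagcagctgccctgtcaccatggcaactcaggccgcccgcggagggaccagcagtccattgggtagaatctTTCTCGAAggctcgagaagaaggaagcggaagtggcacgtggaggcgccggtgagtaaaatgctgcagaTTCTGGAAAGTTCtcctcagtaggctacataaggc
Hspe1: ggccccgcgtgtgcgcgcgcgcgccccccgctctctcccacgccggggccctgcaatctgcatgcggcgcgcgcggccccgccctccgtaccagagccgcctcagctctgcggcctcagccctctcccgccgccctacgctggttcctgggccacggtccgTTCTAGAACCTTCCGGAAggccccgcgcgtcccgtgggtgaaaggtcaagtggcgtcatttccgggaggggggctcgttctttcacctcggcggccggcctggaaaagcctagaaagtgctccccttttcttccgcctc
Dnaja1: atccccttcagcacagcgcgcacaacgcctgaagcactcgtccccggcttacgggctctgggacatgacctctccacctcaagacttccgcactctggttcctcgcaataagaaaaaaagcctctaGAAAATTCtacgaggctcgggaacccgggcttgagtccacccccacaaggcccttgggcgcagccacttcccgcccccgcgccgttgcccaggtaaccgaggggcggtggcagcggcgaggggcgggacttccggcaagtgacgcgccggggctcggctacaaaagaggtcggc

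Of the 11 heat shock genes 7 had a window, and 6 of these 7 held a pair of units, against 17.0% of 27025 mouse genes with a window. A run of 3 units, GAANNTTCNNGAA or TTCNNGAANNTTC, was found in 3 of the 7, against 0.662% of all genes. The 3 were Hsph1, Hspe1 and Hspd1. Hspe1 and Hspd1 point away from each other, and the matches found for Hspd1 are the same bases as those printed for Hspe1. Dnajb1 held no match in its 2 windows. Dnaja1, which is outside these counts, held a match only in the printed window. Its other windows, chr4:40722672-40722971 and chr4:40722680-40722979, held none. Of the 20 genes of lowest p 17 had a window and 5 of these held a pair of units. Matches were likely beforehand in the heat shock genes, since many are known to be switched on by HSF1. The counts therefore say nothing about these arrays. A match describes the letters of the window only, and whether HSF1 had a part in the differences was not tested.

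Hspa1a had the largest difference of the heat shock genes. It read 7.54, 9.61, 6.20, 8.58 and 3.47 in knockout mice, against 8.36, 9.44, 11.29, 10.61 and 11.51 in wild-type mice. The groups overlapped through knockout replicates 2 and 4, and the spread within the knockout group was wide, with a difference of -3.16 ± 1.04 (SE, limma, adjusted p 0.833). Hspa1a has a near-identical copy, Hspa1b, and whether the probe tells the pair apart was not tested.

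The other members differed by less. Apart from Hspa1a, Dnajb1 and Hspd1, the heat shock genes given here were chosen after their values were seen, as were Fos, Jun, Egr3, Atf3, Ier3, Klf2, Klf6, Dusp1, Myc and Fkbp5 below. Hspb1 read 10.38, 11.61, 10.92, 11.52 and 10.55 in knockout mice, against 11.09, 12.12, 11.66, 12.65 and 12.60 in wild-type mice, with a difference of -1.03 ± 0.34 (limma, adjusted p 0.833). Hsph1 read 9.16, 10.75, 9.53, 9.74 and 9.03 in knockout mice, against 10.40, 10.19, 10.60, 11.60 and 11.25 in wild-type mice, with a difference of -1.16 ± 0.45 (adjusted p 0.949). Knockout replicate 2 was the highest knockout array in Hspa1a, Dnajb1, Hspb1, Hsph1 and Hspe1. Hspe1 differed by -0.57 ± 0.24, and Hsp90aa1, the inducible HSP90, by -0.73 ± 0.30. The constitutive chaperones Hspa8 and Hsp90ab1 differed by -0.34 ± 0.17 and -0.35 ± 0.18, and the HSP70 co-chaperone Bag3 by -0.19 ± 0.25. Cryab, a small chaperone abundant in muscle, was the 1 member above 0, at 0.34 ± 0.23.

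**Figure D3:**
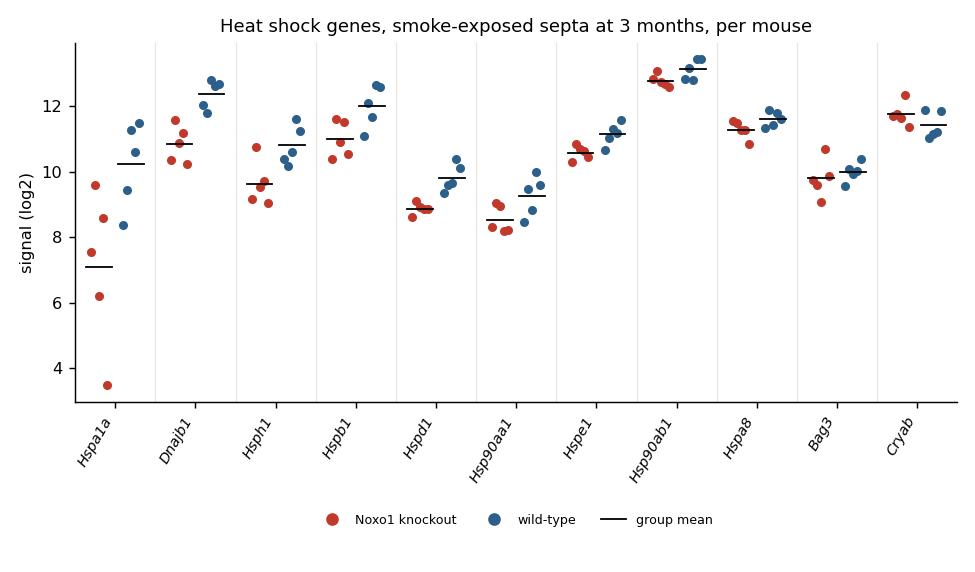
Signals (log2, vertical axis) of the 11 measured heat shock genes in smoke-exposed septa at 3 months, with 5 points per group, knockout left of wild-type, bars for group means, and genes ordered by difference. Hspa1a has the widest gap between means (-3.16) and the widest spread, and Dnajb1 and Hspd1 are the members whose groups do not overlap.

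The mean signal of the 11 heat shock genes was 10.05, 10.77, 10.08, 10.53 and 9.59 in knockout septa, against 10.55, 10.90, 11.04, 11.42 and 11.51 in wild-type septa. The male-pattern median was -0.96, with 9 of 11 members lower, and the sex-adjusted median was -0.59, with 10 of 11 lower. The medians were -0.03 in control septa at 3 months and 0.09 in smoke-exposed septa at 8 months. In the vessels of the same mice the median was -0.34, with Hspa1a at -3.99 and Dnajb1 at -1.61. Of the 8 septa groups, smoke-exposed wild-type mice at 3 months had the highest mean of the list, 11.08 ± 0.39, and the other 7 means lay between 10.14 and 10.49.

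Immediate early genes, which are transcribed within minutes of a stimulus to the cell, also lay lower. Of 20 measured members 17 were lower, with a median of -0.75. At an unadjusted p under 0.05, 6 were lower (2.63% of all genes were) and 1, Myc, was higher, and none passed the adjusted test. Egr1, a zinc finger factor of the early growth response, read 10.03, 12.00, 12.84, 12.05 and 12.26 in knockout mice, against 14.09, 13.48, 13.91, 13.57 and 13.90 in wild-type mice. The groups did not overlap, and the difference was -1.95 ± 0.63 (SE, limma, adjusted p 0.825). Its relative Egr2 read 3.50 to 6.01 in knockout mice and 6.38 to 8.46 in wild-type mice, also without overlap, a difference of -2.75 ± 0.95 (adjusted p 0.870).

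Other members followed with overlapping groups. Atf3, a stress-induced transcription factor, read 4.28, 6.45, 7.64, 5.51 and 4.28 in knockout mice and 7.28 to 8.29 in wild-type mice, with a difference of -2.23 ± 0.97 (limma, adjusted p 0.968). Nr4a1, an orphan nuclear receptor, differed by -1.19 ± 0.48, Egr3 by -1.63 ± 0.73 and Ier3, a regulator of cell survival, by -0.88 ± 0.43. Fos and Jun, the partners of the AP-1 factor, differed by -0.96 ± 0.53 and -0.63 ± 0.34. Klf2, Klf6 and Dusp1, which are bright in these septa, differed by -0.05 ± 0.34, -0.05 ± 0.23 and -0.13 ± 0.24. Knockout replicate 3 was the array nearest to the wild-type mice, with a list mean of 9.50, against 8.01 to 8.57 in the other knockout mice and 9.00 to 9.56 in wild-type mice.

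The male-pattern median of the immediate early list was -0.96 and the sex-adjusted median -0.49, and the medians in control septa at 3 months and smoke-exposed septa at 8 months were -0.13 and -0.16. In the vessels of the same mice it was -0.94, with 19 of 20 members lower. How long after smoke and death the tissue was taken was not stated in the labels, and its part in these values was not tested.

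Genes that respond to glucocorticoids lay higher in knockout septa. Of 12 members 9 were higher, with a median of 0.27, and 4 had an unadjusted p under 0.05, all higher (2.42% of all genes were), with 0 past the adjusted test. Angptl4, a secreted inhibitor of lipoprotein lipase, read 9.37, 8.88, 8.27, 8.98 and 8.88 in knockout mice, against 8.10, 7.18, 6.61, 7.97 and 8.85 in wild-type mice, with a difference of 1.14 ± 0.36 (limma, adjusted p 0.762). Tsc22d3, the anti-inflammatory leucine zipper GILZ, differed by 0.47 ± 0.17, and Fkbp5, a co-chaperone of the glucocorticoid receptor, by 1.17 ± 0.45. Zbtb16, the transcription factor PLZF, read 10.21 to 11.37 in knockout mice, and in wild-type mice 10.85, 7.98, 7.93, 8.57 and 10.55, a difference of 1.60 ± 0.59.

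Wild-type replicates 1 and 5 lay with the knockout mice in Zbtb16, and replicates 2, 3 and 4 lay below them. The median of the list was 0.35 in control septa at 3 months, with Zbtb16 at 1.72, and it was near 0 in smoke-exposed septa at 8 months. Leaving out 1 mouse at a time gave medians between -0.02 and 0.40, with -0.02 without wild-type replicate 3, and the male-pattern and sex-adjusted medians were 0.45 and 0.19. The circadian clock genes had a median of 0.36 (male-pattern 0.55) with 12 of 17 higher, led by the repressor gene Cry2 (0.89 ± 0.38, limma, adjusted p 0.968). The time of day of sampling was not stated in the labels.

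Inflammatory genes gave no common direction. Of 24 chemokine and cytokine genes 15 were lower, with a median of -0.13, and 2 had an unadjusted p under 0.05, both lower (2.63% of all genes were). The sex-adjusted median was 0.10, with 16 of 24 higher. Il6, a cytokine of the acute phase response, was dim in all knockout mice at 1.90, 2.58, 3.33, 1.71 and 1.35, against 4.32, 6.04, 5.13, 3.29 and 6.60 in wild-type mice. Only wild-type replicate 4 came down to the knockout range, and the difference was -2.90 ± 0.97 (SE, limma, adjusted p 0.833). Ccl3, a macrophage chemokine, read 3.06 to 5.42 in knockout mice and 4.79 to 7.56 in wild-type mice, with a difference of -1.74 ± 0.84 (adjusted p 0.988).

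Interferon response genes were split, with 7 of 14 higher and 7 lower and a median of -0.16. Mx1, an antiviral GTPase, read 5.80, 4.10, 4.78, 5.00 and 6.04 in knockout mice, against 2.26, 2.94, 1.55, 1.92 and 1.65 in wild-type mice. All knockout values were above the dim threshold and all wild-type values below it, with a difference of 3.08 ± 1.04 (SE, limma, adjusted p 0.835). Isg15, a ubiquitin-like protein of the same response, ran the other way with -1.11 ± 0.48, as did Irf7 above. Antigen presentation genes had a median of -0.13 with 12 of 16 lower, the class I gene H2-D1 at -0.43 ± 0.19.

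Markers of immune cells also varied, and here, as in all bulk tissue, fewer cells of a type and less RNA per cell cannot be told apart. Plasma cell markers lay lower in knockout septa in 5 of 6 genes, with a median of -1.34 and a male-pattern median of -1.55. The mean signal of the list was 4.98 to 5.78 in knockout mice and 5.74 to 7.41 in wild-type mice. Tnfrsf17, the receptor BCMA of long-lived plasma cells, was dim in all knockout mice at 1.27 to 2.31, against 4.84, 6.26, 1.61, 1.89 and 7.40 in wild-type mice, with a difference of -2.58 ± 0.85 (SE, limma, adjusted p 0.833). Mzb1 and Derl3, proteins of the secretory pathway of these cells, differed by -1.60 ± 0.65 and -1.07 ± 0.52. Ms4a1, which encodes the B cell antigen CD20, differed by 2.16 ± 0.83 in the opposite direction, and B cell markers had a median of 0.25, which was -0.31 in the male-pattern comparison.

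Myeloid markers gave no common direction. Ltf, the neutrophil granule protein lactoferrin, read 4.61, 5.52, 3.94, 6.97 and 6.40 in knockout mice, against 2.65, 1.61, 3.56, 2.50 and 2.46 in wild-type mice, with a difference of 2.93 ± 0.97 without overlap (SE, limma, adjusted p 0.833). The 12 neutrophil markers nonetheless had a median of -0.33 over all mice and of 1.20 in the male-pattern comparison. The list mean was 9.26 and 9.79 in knockout replicates 4 and 5, 7.48, 8.63 and 5.93 in knockout replicates 1 to 3, and 7.80 to 8.57 in wild-type mice, so knockout arrays stood on both sides of the wild-type range. Without knockout replicate 3 the median of the list was 0.36. Erythroid markers had a median of -0.33 over all mice and 0.99 in the male-pattern comparison, and platelet markers -0.81 and 0.83. Whether blood left in the tissue had a part in these values was not tested. Chil3, a chitinase-like protein of alveolar macrophages, differed by 1.53 ± 0.74, whereas the alveolar macrophage list had a median of -0.09. The complement gene C1qa of interstitial macrophages differed by 1.73 ± 0.63. The 9 monocyte and interstitial macrophage markers, C1qa among them, had a median of 0.08, with 5 higher and 4 lower.

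Structural cell markers showed small differences. All 10 type 1 pneumocyte markers were higher, with a median of 0.19, and 10 of 12 type 2 pneumocyte markers, with a median of 0.26, and 48.8% of all genes were higher. Rtkn2, a marker of type 1 cells, differed by 1.19 ± 0.55, with wild-type replicate 2 at 3.02 and the other wild-type mice at 5.24 to 7.51. Sftpa1, surfactant protein A of type 2 cells, read 11.18 to 11.63 in knockout mice and 10.75 to 11.45 in wild-type mice, with a difference of 0.32 ± 0.18 (limma, adjusted p 0.993). Leaving out 1 mouse at a time kept the type 1 median between 0.09 and 0.32 and the type 2 median between 0.13 and 0.35. The male-pattern medians were 0.17 for type 1 and 0.41 for type 2 markers. Type 1 markers were higher in 1 of 10 in control septa at 3 months.

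Endothelial and mesenchymal lists differed in direction. Capillary markers had a median of -0.01, and their tight junction gene Cldn5 differed by -0.37 ± 0.19. Arterial and venous markers were lower in 9 of 11 genes with a median of -0.21, and the male-pattern median was 0.10. Gja5, the arterial gap junction protein connexin 40, differed by -0.83 ± 0.33 (limma, adjusted p 0.968). Lyve1, a hyaluronan receptor of lymphatic vessels, read 11.49 to 11.92 in knockout mice and 10.23 to 11.75 in wild-type mice, with a difference of 0.68 ± 0.24. Flt4, the receptor VEGFR3 of the same vessels, differed by 1.31 ± 0.62 without overlap. The 5 lymphatic markers had a median of 0.68, with 3 higher and 2 lower, and of 0.04 without knockout replicate 5. Fibroblast markers, Dpt among them, had a median of -0.22, smooth muscle markers of -0.09 and pericyte markers of 0.14.

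Matrix genes, which bear on the loss of alveolar walls, gave a few single differences. Lox, which cross-links collagen and elastin, read 8.05, 8.77, 8.57, 8.25 and 9.62 in knockout mice, against 7.80, 6.18, 5.33, 6.50 and 7.48 in wild-type mice. The groups did not overlap, and the difference was 1.99 ± 0.58 (SE, limma, adjusted p 0.674), with 2.27 in the male-pattern comparison. Col4a3 and Col4a4, basement membrane collagens of the alveolar wall, differed by 0.94 ± 0.41 and 1.04 ± 0.35. The 17 elastic fibre genes had a median of -0.04 and the 16 collagens of -0.03. Of 19 proteases and inhibitors linked to emphysema 15 were lower, with a median of -0.33 over all mice, a male-pattern median of -0.10 and a sex-adjusted median of -0.07. The lower ones included the lysosomal protease Ctsl at -0.54 ± 0.23 and the collagenase Mmp13, dim in both groups, at -0.90 ± 0.40.

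Redox programmes downstream of oxidants showed little. NRF2 antioxidant targets were lower in 13 of 16 genes with a median of -0.16, and 0 of the 16 had an unadjusted p under 0.05. The male-pattern median of that list was 0.05. Genes that handle superoxide and peroxide had a median of 0.00 over 15 genes. Targets of the aryl hydrocarbon receptor, the sensor of polycyclic compounds in smoke, had a median of -0.17 over 8 genes, with Cyp1a1 at 1.72 to 4.38 in knockout mice and 2.35 to 4.84 in wild-type mice.

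Single genes of other lists stood out by size. Adm, the vasodilator adrenomedullin, read 6.69 to 9.32 in knockout mice and 8.38 to 10.64 in wild-type mice, with a difference of -1.82 ± 0.61 (limma, adjusted p 0.833), while the hypoxia list had a median of 0.00. Cdkn2a, a cell cycle inhibitor of senescent cells, read 1.57 to 3.48 in knockout mice and 2.98 to 4.06 in wild-type mice, with dim means in both groups and a difference of -1.52 ± 0.60. Ddit3, the transcription factor CHOP of the unfolded protein response, differed by -1.46 ± 0.61, and the list had a median of -0.04. The Wnt genes Wnt2 and Sfrp2 differed by -1.56 ± 0.49 and -2.47 ± 1.00, with Wnt2 dim in both groups by its means of 1.76 in knockout mice and 3.32 in wild-type mice. None of these passed adjustment.

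The neighbours of Noxo1 on chromosome 17 were examined since a targeted allele carries flanking sequence of its own. The 14 neighbours measured had a median of 0.07, with 8 higher and 6 lower and 0 at an unadjusted p under 0.05. Zfp598, a ubiquitin ligase of stalled ribosomes, had the lowest p among them with -0.99 ± 0.61, and knockout replicate 4 stood at 1.98, against 4.68 to 5.59 in the other knockout mice. The 7 genes known to differ between C57BL/6 substrains had a median of -0.13, with 0 under 0.05.

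**Figure D4:**
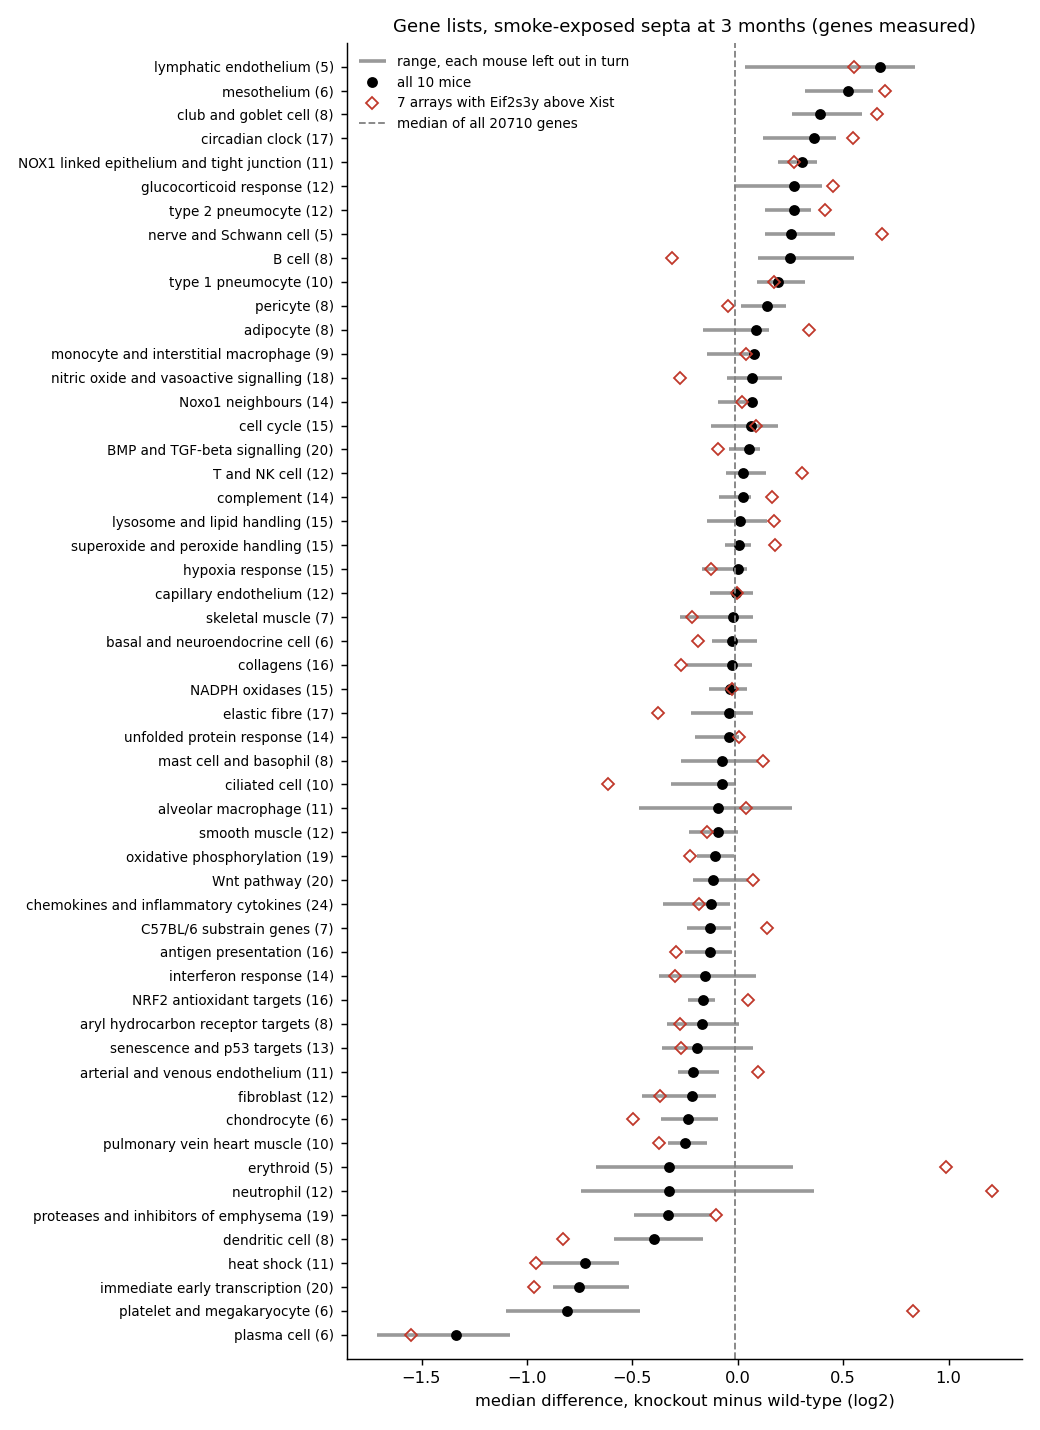
Median difference of each gene list (knockout minus wild-type, log2, horizontal axis), with the number of measured genes in parentheses, filled points for all 10 mice, grey bars for the range when each mouse is left out in turn, and open diamonds for the 7 arrays with Eif2s3y above Xist. Plasma cell (-1.34), immediate early (-0.75) and heat shock (-0.73) medians are below 0 in all these settings, and the neutrophil, erythroid, platelet and B cell medians are among those that change sign between filled points and diamonds.

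The genotype difference under smoke was set against that in control septa of the same age by the difference of the differences. With limma 0 of 20710 genes passed (lowest adjusted p 0.933), and 698 (3.37%) had an unadjusted p under 0.05. Slc6a14 had the lowest p, with 3.33 ± 0.78 (SE). Dnaja1 followed with -1.58 ± 0.38, and its control values were 10.15 to 10.94 in knockout mice and 10.00 to 10.49 in wild-type mice, so the genotypes stood in opposite order there. Alpk1, a kinase that senses bacterial sugars, followed them with 2.74 ± 0.71, and it was dim in both smoke-exposed groups.

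The same was done between 3 and 8 months of smoke. Again 0 genes passed in limma (lowest adjusted p 0.962), and 927 (4.48%) had an unadjusted p under 0.05. Zcchc8 gave 1.40 ± 0.35, with 9.63 to 10.39 in knockout mice and 9.91 to 10.81 in wild-type mice at 8 months. Dnajb1 gave -1.81 ± 0.46, with 9.79 to 11.49 in knockout mice and 9.99 to 11.17 in wild-type mice at 8 months. Catsper4, a sperm calcium channel subunit, gave 3.63 ± 0.93 with values of 2.08 to 6.65 in the 4 groups.

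Septa and vessels of the same 10 mice were compared through the difference within each mouse. With limma 0 genes passed (lowest adjusted p 0.106), and 987 (4.77%) had an unadjusted p under 0.05. The lowest limma adjusted p was 0.638 with the sex-linked score as a covariate and 0.829 over arrays with Eif2s3y above Xist. Uprt, related to uracil salvage enzymes, gave 4.48 ± 0.58, with 2.45 to 4.52 in knockout septa and 1.45 to 4.48 in wild-type septa, and 1.32 to 3.97 in knockout vessels and 5.47 to 6.90 in wild-type vessels. Jchain, the joining chain of IgA and IgM made by plasma cells, gave -5.35 ± 0.72 (SE, adjusted p 0.106). Jchain read 4.91 to 6.95 in knockout septa and 5.93 to 9.19 in wild-type septa, and 10.91 to 12.17 in knockout vessels and 4.44 to 11.13 in wild-type vessels. It was thus lower in knockout septa and higher in knockout vessels of the same mice on average, and the plasma cell list had a median of 0.67 in vessels. Mrps6, a mitochondrial ribosomal protein gene, gave -4.02 ± 0.64.

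**Figure D5:**
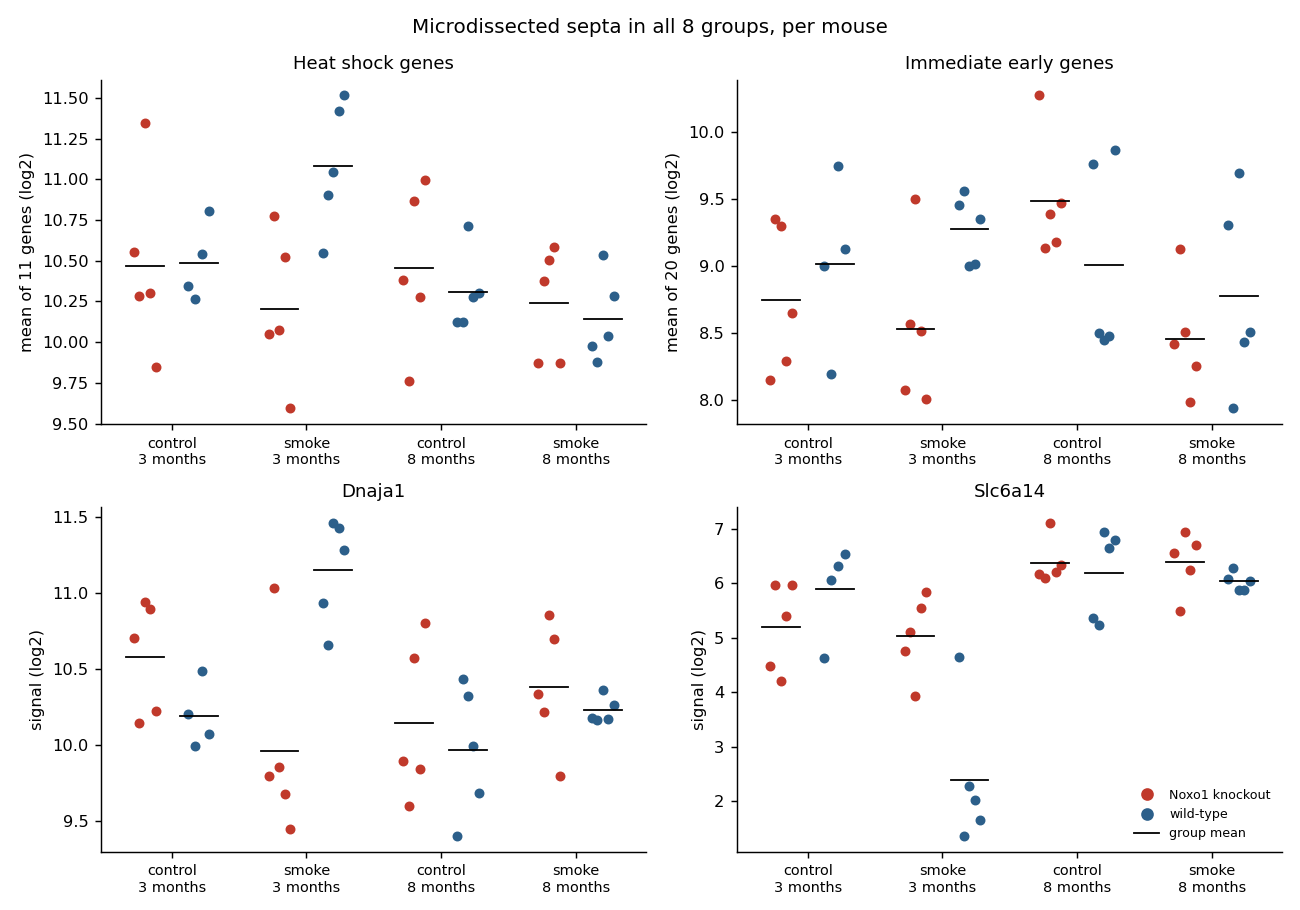
Mean signal of the heat shock and immediate early lists and signals of Dnaja1 and Slc6a14 (log2, vertical axes) in the 8 septa groups, with a point for each mouse, knockout left of wild-type, and bars for group means. In Dnaja1, Slc6a14 and the heat shock list the smoke-exposed wild-type group at 3 months has the most distant mean of the 8 groups, at 11.15, 2.39 and 11.08.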

How the data were processed

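The deposited values are log2 signals of 62976 array features in 76 arrays. Per the submitters' processing notes the authors used limma, and no version or further step is given in the sources used here. The log2 columns deposited by the authors had medians of 3.19 in every array, so they had been normalized between arrays. Of the features, 31465 carried 1 gene symbol and 31511 none, 29050 of the named ones were matched to RefSeq genes and 2933 symbols were updated. After 671 features with an empty cell were left out, the brightest feature of each gene gave 20710 genes. The number of arrays limits the precision.

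Group means of the 8 septa groups were fitted over 39 septa arrays with limma 3.58.1 in R 4.3.3 (lmFit, eBayes with trend), with Benjamini-Hochberg adjustment over all genes and a threshold of 0.05. The genotype difference was also set against that in control septa and at 8 months in this fit, and against vessels by differences within each mouse. Noxo1 alone was tested with an exact two-sided permutation test in scipy 1.17.1. The fit was tested on simulated data. The genes described are the 10 higher and 10 lower of lowest p among named genes whose brighter group mean passed the receptor gene percentile, all NADPH oxidase genes, up to 3 members per list of lowest p under 0.05 or else 1, and 3 genes per difference of differences. The members and the 55 lists were chosen with earlier results of these data known. Same-numbered knockout and wild-type arrays were not paired, with correlations of their deviations of -0.04 to 0.05, 0 of them over 0.1. Alternatives covered normalization, a filter on dim genes, the mean of features, array weights, the prior, the arrays fitted, a replicate block, a sex-linked covariate and leaving out each mouse. The sex pattern was read from Xist and Eif2s3y, and the comparison over arrays with Eif2s3y above Xist was chosen after seeing the data. The labels give a mouse number for each array, which some arrays share, and no batch, so a batch effect was not tested. Promoter windows and coordinates came from RefSeq (GRCm38.p6). Figures were drawn with matplotlib 3.10.9.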

Additional observations from a re-analysis of the deposited data

Results flagged for a closer look

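Among the 236 gene and group pairs examined, 13 held 1 array set apart from the other 4. Its gap to the nearest of them was over 0.71 of the whole range of the group. Chance gives such a gap in about 1 in 20 groups, which is close to the share found here. In knockout septa, Dnaja1 was at 11.03 in replicate 2, with the nearest value at 9.86. Knockout replicate 4 held 3 of these arrays' values: Ctsl at 8.80 (nearest 9.52), Rac1 at 14.62 (nearest 14.21) and Zfp598 at 1.98 (nearest 4.68). The muscle myosin gene Myh1 was at 2.34 in knockout replicate 5 (nearest 1.78), a dim signal in all 5 mice. Prkg1, a kinase of nitric oxide signalling, was at 2.78 in knockout replicate 1 (nearest 3.95).

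In wild-type septa, Slc6a14 was at 4.65 in replicate 1, with the nearest value at 2.27, and the lipid droplet gene Plin4 was at 6.64 in the same replicate (nearest 4.04). Replicate 2 stood apart in Ctsl at 9.26 (nearest 10.06) and in Egr3 at 6.28 (nearest 3.91). Replicate 5 stood apart in Cybb at 5.91 (nearest 10.22) and in Wdfy1, a substrain gene, at 9.08 (nearest 9.63). Nox4 was at 9.34 in replicate 4 (nearest 8.24).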

How the results depend on the processing

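The genotype comparison gave 0 genes past the adjusted limma test in 18 of 21 alternatives. It gave 1 gene (Adss, adjusted p 0.0479) with the sex-linked covariate, and leaving out 1 mouse at a time gave 0 to 3 genes, namely 1 without knockout replicate 2 (Dnaja1) and 3 without wild-type replicate 1 (AA986860, Adss and Slc6a14). In 1 fit over all 76 arrays with mouse as a random block, 539 genes had an unadjusted p under 0.05, against 1046, and the lowest adjusted p was 1.00. By time, 2 genes (Ephb1 and Kcnk2, adjusted p 0.0495) passed over arrays with Eif2s3y above Xist, where 1 knockout array remained at 8 months and was assumed to vary like the others. By smoke and by tissue all alternatives gave 0. With the replicate number as a block limma gave 0 genes in the comparison, and the block for Noxo1 kept -2.39 with an exact sign-flip p of 0.125, the numbers not being shown to pair the mice. Noxo1 over arrays with Eif2s3y above Xist was -2.13 (exact permutation p 0.190). Neither the sign-flip test nor the permutation test over those arrays can reach 0.05, because too few arrangements exist. Leaving out 1 mouse gave Noxo1 differences of -2.89 to -2.12 (exact permutation p 0.0159 to 0.0317). The cause of these changes was not tested.

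With the mean of all features in place of the brightest, Mapk8, Cux1 and Plekhb1 had the differences 0.73, 0.48 and 0.39. The B cell median was -0.31 over arrays with Eif2s3y above Xist. Signs of small differences changed too. Over arrays with Eif2s3y above Xist the difference was 0.30 for Bag3, 0.24 for Cyba, -0.030 for Cybb, 0.99 for Hbb-bt, 0.83 for Ncf4, -0.28 for Nox3, 0.74 for Ppbp, 0.18 for Rac1 and 0.039 for Taldo1. With the mean of all features it was 0.084 for Cyba, 0.021 for Duoxa2, 0.027 for Rac1 and -0.042 for Wdfy1. Array weights gave -0.14 for Cybb and 0.031 for Duoxa2, a new quantile normalization 0.016 for Rac1, and the sex-linked covariate 0.23 for Ncf4. Leaving out 1 mouse gave -0.89 to 0.39 for Cybb, -0.42 to 0.024 for Duoxa1, -0.18 to 0.11 for Duoxa2, -0.51 to 0.17 for Ncf4, -0.12 to 0.33 for Nox3, -0.10 to 0.044 for Rac1 and -0.037 to 0.39 for Rac2.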

Other observations

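A few cell type lists not described above held members with larger differences. Scgb3a1, a secretory protein of club cells, differed by 1.62 ± 0.75, and the list of club and goblet cell markers had a median of 0.39 with 5 of 8 higher. Myl2, a ventricular myosin light chain, differed by -2.22 ± 0.96, and markers of pulmonary vein heart muscle had a median difference of -0.25. Of these 10 markers 5 were higher and 5 lower, and 6 were dim in both groups. At an unadjusted limma p under 0.05, 1 was higher (2.42% of all genes were) and 2 were lower (2.63%). All 6 mesothelium markers were higher, with a median of 0.52, and 4 of them were dim in both groups. None of these genes passed the adjusted limma test.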
